A study of Mus musculus with 9 samples.

Results

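Cystatin C and 6 lysosomal cathepsins were followed in RNA sequencing of cerebral cortex from 3 inbred strains of mice, 7 genes out of 54532 in the deposited table. The genes were Cst3, which encodes cystatin C, and Ctsa, Ctsb, Ctsd, Ctsf, Ctsl and Ctsz, which encode cathepsins A, B, D, F, L and Z, and all 7 were found by name. The strains were C57BL6/J (B6), C3H/HeJ (C3H) and WSB/EiJ (WSB), with 3 male mice of each aged 8 to 12 weeks and with no treatment or engineered allele named. The mouse reference genome was built from B6, and WSB, unlike the classical strains B6 and C3H, descends from wild-caught mice. The study set the strains side by side to find genes that are expressed differently between them, as part of a search for genes that affect damage after stroke, but these mice had no stroke. The 7 genes were chosen with their measured levels in all 9 libraries known, in each of the 3 pairs of strains, so their levels and fold changes between strains are given below as a description, with no p and with nothing inferred from them.

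Lysosomes are the compartments in which cells digest proteins, lipids and sugars, and cathepsins are among their main proteases. They are made as inactive precursors, reach the lysosome mostly through receptors for mannose 6-phosphate, and become active in its acid interior. Cystatin C is a small secreted protein that binds cysteine cathepsins tightly and blocks them. In brain it is made in large amounts by astrocytes, microglia and choroid plexus, and it is abundant in cerebrospinal fluid.

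Levels are given in FPKM, the fragments on a gene scaled to its length and to a size factor of the library, which allows levels of different genes to be compared per length. The libraries held 16317439 to 21562429 reads on genes, recovered from the steps in the deposited values, so the 7 genes rested on 622 (Ctsz) to 42456 (Cst3) reads per library. No cortical neuron, astrocyte, oligodendrocyte or microglia marker was listed at 0 in any library. The library of C3H replicate 2 stood apart in that the predicted gene Gm23935 reached 59985 FPKM, against 6094 to 10296 FPKM in the other libraries. A further difference between libraries followed the GC content of the genes (their share of G and C bases). For each library, the log2 deviation of every gene from its own mean over the 9 libraries was correlated with GC content across 12995 genes, which are not independent replicates. Spearman's rho was 0.513 in C3H replicate 1 and 0.527 in C3H replicate 3, and it lay between -0.467 and 0.059 in the other 7 libraries. Results for the 7 genes are therefore also given without C3H replicate 2 and after removal of each library's GC trend.

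Cst3 was by far the most abundant of the 7 genes, with a mean of 1244 FPKM over all mice, and the 10th most abundant protein-coding gene in the table. It lies on chromosome 2 (ENSMUSG00000027447, chr2:148871722-148875692 of GRCm38, minus strand). In B6 mice its level was 1031, 1058 and 1159.6 FPKM. In C3H mice it was 1616, 1429.7 and 1728 FPKM, and in WSB mice 973, 1090.5 and 1111 FPKM. All 3 C3H mice were above every B6 and WSB mouse, whereas the B6 and WSB mice overlapped. The means were 1591 ± 151 FPKM in C3H, 1083 ± 68 FPKM in B6 and 1058 ± 74 FPKM in WSB (SD, n = 3 each), so C3H was 1.47 times B6. On the log2(FPKM + 0.1) scale the fold change was 0.55 (standard error 0.12) between C3H and B6, -0.03 (0.11) between WSB and B6, and -0.59 (0.12) between WSB and C3H. In bulk tissue, fewer cells of a type and less RNA per cell cannot be told apart, here and in all results that follow.

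**Figure D1:**
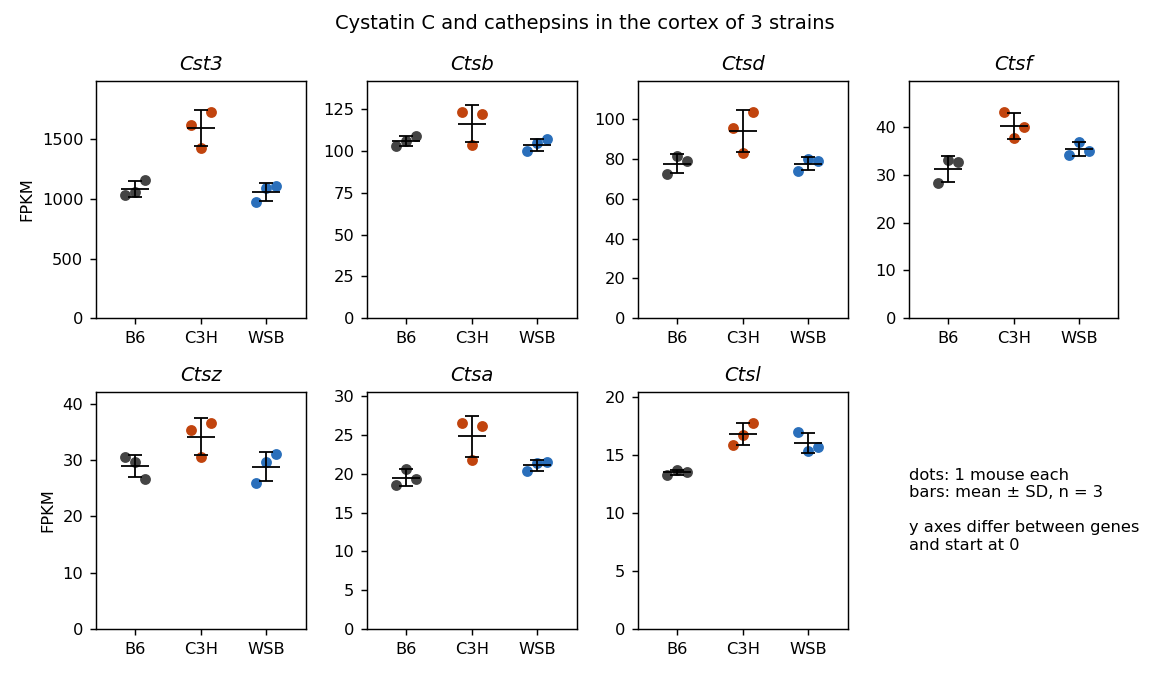
Level in FPKM (vertical axes, starting at 0 and differing between genes) of cystatin C and the 6 cathepsins in each mouse of B6, C3H and WSB. Dots are single mice and bars are the mean ± SD of 3 mice; all 3 C3H mice lie above all 3 B6 mice for Cst3, Ctsd, Ctsf, Ctsa and Ctsl, and C3H replicate 2 (middle dot) is the lowest C3H mouse for every gene but Ctsl.

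The cysteine cathepsins are the targets of cystatin C, and Ctsb was the highest of those chosen. Cathepsin B cleaves within proteins and from their carboxyl ends, and its gene (ENSMUSG00000021939, chr14:63122462-63145923, plus strand) had 103, 106 and 109 FPKM in B6 mice, 123, 104 and 122 FPKM in C3H mice, and 100.004, 105 and 107 FPKM in WSB mice. The 3 strains overlapped, with C3H replicate 2 inside the range of both others. The fold change of Ctsb was 0.13 (standard error 0.09) between C3H and B6, the smallest of the 7 genes in that pair, and -0.16 (0.09) between WSB and C3H.

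Ctsz encodes cathepsin Z, a carboxypeptidase that is prominent in microglia and macrophages (ENSMUSG00000016256, chr2:174427493-174439039, minus strand). It had 30.5, 29.7 and 26.7 FPKM in B6, 35.4, 30.5 and 36.7 FPKM in C3H, and 26.0, 29.6 and 31.0 FPKM in WSB. Here too the ranges overlapped between all strains, because C3H replicate 2 did not exceed the highest mouse of B6 or of WSB. The fold change was 0.24 (standard error 0.10) between C3H and B6 and -0.24 (0.10) between WSB and C3H.

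Ctsf encodes cathepsin F, a cysteine protease whose loss causes lipofuscin to build up in neurons (ENSMUSG00000083282, chr19:4855129-4860912, plus strand). Its level was 28.2, 33.1 and 32.7 FPKM in B6 mice, 43.2, 37.7 and 40.0 FPKM in C3H mice, and 34.1, 37.0 and 35.01 FPKM in WSB mice. The strains fell into the order B6, WSB, C3H with no overlap between any of them. The fold change was 0.36 (standard error 0.09) between C3H and B6, 0.18 (0.08) between WSB and B6, and -0.19 (0.08) between WSB and C3H.

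Ctsl encodes cathepsin L, a cysteine endopeptidase of broad specificity (ENSMUSG00000021477, chr13:64359337-64370890, minus strand), and it was the lowest of the 7 genes. It had 13.2, 13.7 and 13.5 FPKM in B6 mice, 15.8, 16.7 and 17.8 FPKM in C3H mice, and 16.9, 15.3 and 15.7 FPKM in WSB mice. It was the gene for which B6 stood apart from both other strains, which overlapped each other. The fold change was 0.31 (standard error 0.07) between C3H and B6, 0.24 (0.07) between WSB and B6, and -0.07 (0.08) between WSB and C3H.

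The remaining members are no targets of cystatin C. Ctsd encodes cathepsin D, the main aspartic protease of lysosomes (ENSMUSG00000007891, chr7:142375911-142388038, minus strand). Its level was 72.2, 81.3 and 79.1 FPKM in B6, 95.5, 82.9 and 103 FPKM in C3H, and 73.9, 79.96 and 78.9 FPKM in WSB. The C3H mice were above all others, by a narrow margin in C3H replicate 2, and the B6 and WSB mice overlapped, with means of 77.5 ± 4.7 and 77.6 ± 3.3 FPKM (SD, n = 3 each). The fold change of Ctsd was 0.27 (standard error 0.10) between C3H and B6, 0.00 (0.07) between WSB and B6, and -0.27 (0.09) between WSB and C3H.

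Ctsa encodes cathepsin A, a serine carboxypeptidase that also protects the lysosomal sialidase and beta-galactosidase in a complex (ENSMUSG00000017760, chr2:164832873-164841032, plus strand). In B6 it had 18.6, 20.7 and 19.3 FPKM, in C3H 26.6, 21.8 and 26.2 FPKM, and in WSB 20.3, 21.4 and 21.6 FPKM. C3H was above both others without overlap, and B6 and WSB overlapped. The fold change was 0.34 (standard error 0.10) between C3H and B6, 0.11 (0.07) between WSB and B6, and -0.23 (0.09) between WSB and C3H.

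All 7 fold changes were above 0 between C3H and B6, from 0.13 (Ctsb) to 0.55 (Cst3), with a median of 0.31 where the median of all genes tested was -0.004. Between WSB and C3H all 7 were below 0, with a median of -0.23 against 0.009 for all genes, and between WSB and B6 the median was 0.00 against 0.002. These comparisons share the same mice, so the first and the second are not separate observations. The C3H values lay wholly above the B6 values in 5 of the 7 genes (all but Ctsb and Ctsz), where 14.9% of all genes tested did so. WSB lay wholly below C3H in 4 genes (Cst3, Ctsd, Ctsf and Ctsa), beside 14.4% of all genes, and wholly above B6 in 2 genes (Ctsf and Ctsl), beside 13% of all genes. As the genes were chosen on these values, nothing is read from any of these counts.

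**Figure D2:**
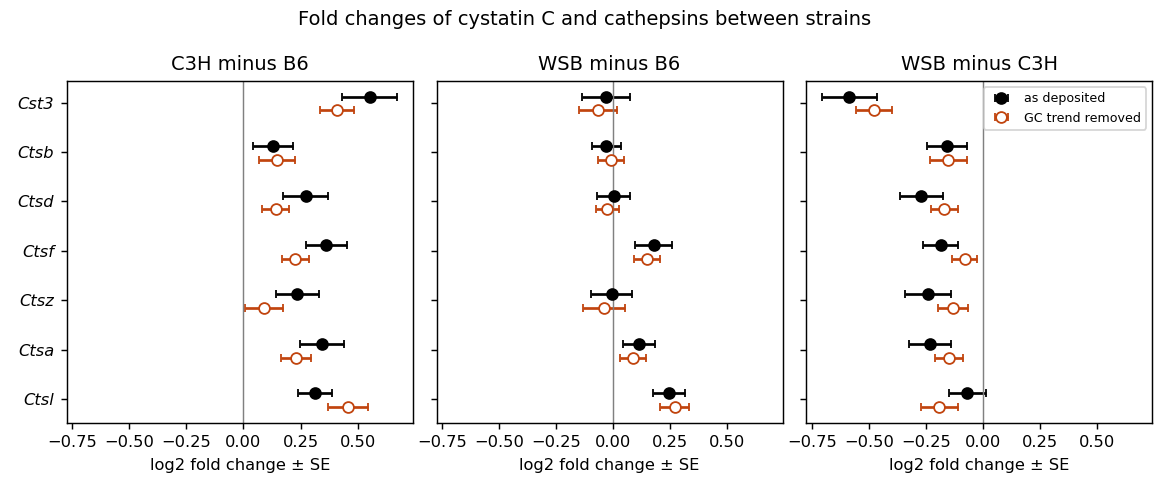
Log2 fold change (horizontal axes) of each of the 7 genes between each pair of strains, with bars of 1 standard error, 3 mice per strain. Filled points use the values as deposited and open points the values after removal of each library's GC trend; all points lie above 0 between C3H and B6 and below 0 between WSB and C3H, and between C3H and B6 removal lowers Cst3 from 0.55 to 0.41 and raises Ctsl from 0.31 to 0.46.

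The level of Cst3 was also set against that of its targets. The summed FPKM of the 9 cysteine cathepsin genes averaging 1 FPKM or more (Ctsb, Ctsf, Ctsl and Ctsz with Ctsc, Ctsh, Ctsk, Ctso and Ctss) was 239 to 268 in C3H, above 236 to 238 in B6 and 221 to 229.8 in WSB. The ratio of Cst3 to that sum was 4.32, 4.47 and 4.91 in B6 mice, 6.04, 5.98 and 6.45 in C3H mice, and 4.41, 4.76 and 4.84 in WSB mice. C3H replicate 2, which was low in most of the 7 genes, lay close to C3H replicate 1 in this ratio. The means were 4.57 ± 0.31 in B6, 6.15 ± 0.25 in C3H and 4.67 ± 0.23 in WSB (SD, n = 3 each), and as Cst3 is in the ratio this too is a description.

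The 7 genes tended to be low in the same mice of each strain. B6 replicate 1, C3H replicate 2 and WSB replicate 1 were each the lowest of their strain for 6 of the 7 genes. The exceptions were Ctsz in B6, which was lowest in B6 replicate 3, and Ctsl in the others, which was lowest in C3H replicate 1 and in WSB replicate 2. The mean log2 deviation of the 7 genes from their own means over the 9 libraries was -0.18, -0.09 and -0.11 in B6 mice, 0.24, 0.06 and 0.27 in C3H mice, and -0.12, -0.04 and -0.03 in WSB mice. These same 3 low libraries also had the lowest rho with GC content of their strain, at -0.467 in B6 replicate 1, -0.180 in C3H replicate 2 and -0.369 in WSB replicate 1. Across the 21 pairs of the 7 genes, Pearson's correlation of the deviations from the strain means had a median of 0.66 and ran from -0.28 (Ctsl with Ctsf or Ctsz) to 0.92 (Ctsa with Ctsb) over 9 libraries. The 5 pairs at or below 0 all held Ctsl. The points share their libraries and their GC trend, so no p is given.

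**Figure D3:**
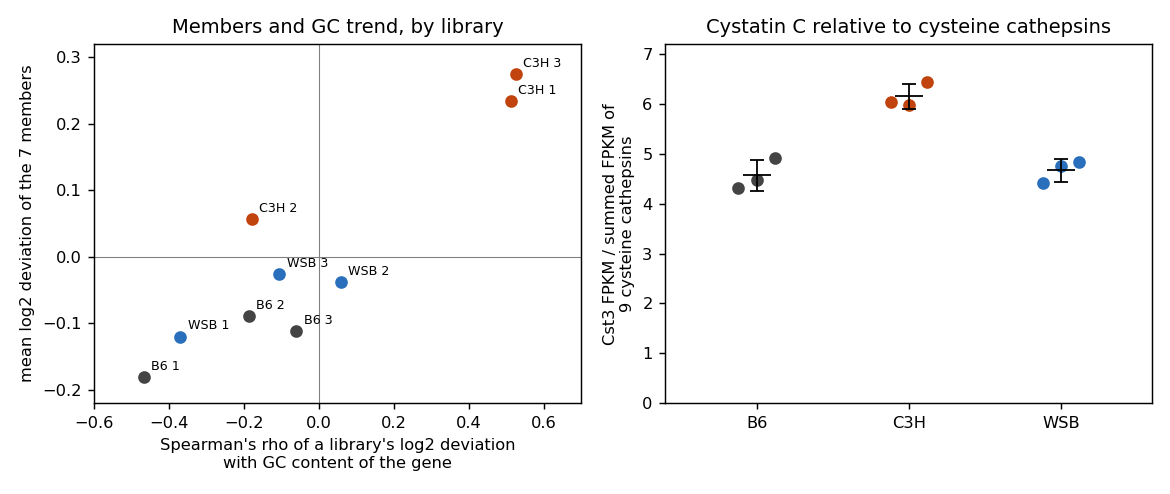
Left, mean log2 deviation of the 7 genes (vertical axis) against Spearman's rho of a library's log2 deviations with GC content over 12995 genes (horizontal axis), 1 point per library, in which C3H replicates 1 and 3 lie at the upper right and C3H replicate 2 lies to the left of them. Right, the ratio of Cst3 FPKM to the summed FPKM of 9 cysteine cathepsin genes in each mouse, with mean ± SD of 3 mice, in which the C3H mice lie between 5.98 and 6.45 and the others between 4.32 and 4.91.

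Most of the 7 genes were rich in GC. The longest annotated transcript had 57.2% GC for Cst3, 57.3% for Ctsz, 56.6% for Ctsf, 55.9% for Ctsd and 54.5% for Ctsa, against a median of 50.02% over 12995 genes averaging 1 FPKM or more. Ctsb at 49.2% was near that median, and Ctsl at 44.3% was below it, with 21.1% of genes lower. The log2 fold change between C3H and B6 rose with GC content over 12940 genes (Spearman's rho 0.485), that between WSB and C3H fell with it (-0.397 over 12998 genes), and that between WSB and B6 varied less with it (0.114 over 13036 genes). Among the 1517 genes with 55 to 57.5% GC the median fold change between C3H and B6 was 0.15, with the middle of the distribution from 0.01 to 0.29. Cst3 and Ctsf lay above that range and Ctsd and Ctsz within it.

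**Figure D4:**
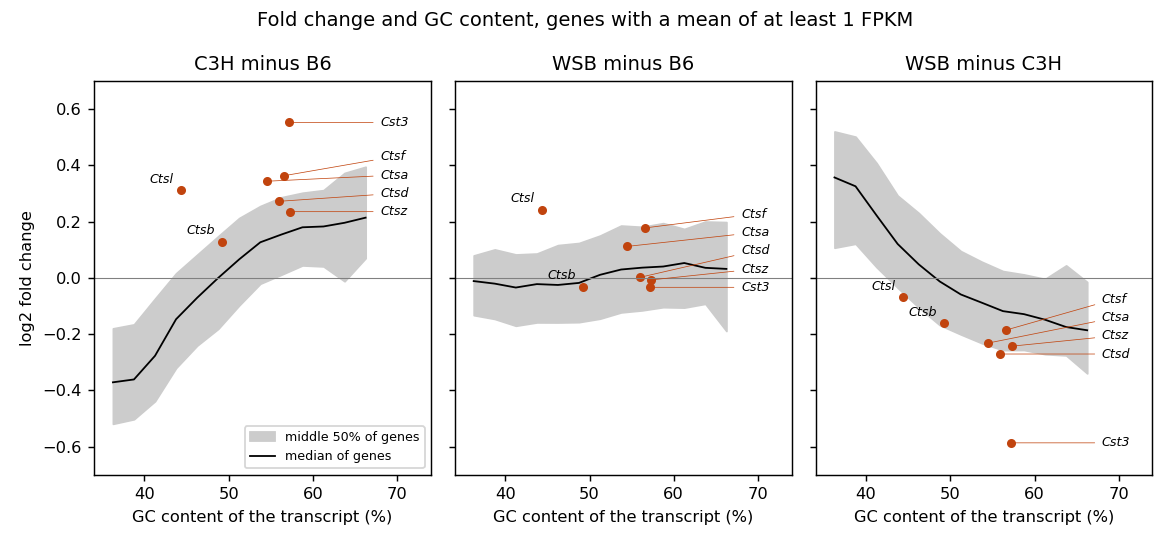
Log2 fold change of each of the 7 genes (points, named) against the GC content of the transcript in percent, for each pair of strains, over the median (line) and the middle 50% (grey) of all genes averaging 1 FPKM or more in bins of GC content. Between C3H and B6 the median rises with GC content, and all 7 points lie above the line, from Ctsb (0.13) to Cst3 (0.55).

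After removal of each library's GC trend, the fold change of Cst3 between C3H and B6 was 0.41 (standard error 0.08), with adjusted levels of 1139.8, 1081 and 1181 FPKM in B6 mice and 1474, 1469 and 1574 FPKM in C3H mice. The C3H mice were still above the B6 mice, and C3H replicate 2 came close to replicate 1. The fold change of Ctsl was then 0.46 (0.09), and those of Ctsf, Ctsa, Ctsb, Ctsd and Ctsz were 0.23, 0.23, 0.15, 0.14 and 0.09. The C3H mice lay wholly above the B6 mice for 5 of the 7 genes, the same 5 as before (all but Ctsb and Ctsz), as did 15.4% of all genes. WSB was then wholly above B6 for 3 genes (Ctsa, Ctsf and Ctsl; 14.2% of all genes), and wholly below C3H for 4 (Cst3, Ctsa, Ctsd and Ctsl; 15.7% of all genes), Ctsl having taken the place of Ctsf. Nothing is read from these counts either. Leaving out C3H replicate 2 had the opposite effect on most genes, with fold changes between C3H and B6 of 0.63 for Cst3, 0.43 for Ctsa, 0.41 for Ctsf, 0.36 for Ctsd, 0.32 for Ctsz, 0.31 for Ctsl and 0.21 for Ctsb. Under all 19 settings run, which include the values as deposited, each of the 7 genes stayed above 0 between C3H and B6 and below 0 between WSB and C3H.

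Promoter sequences are shown for 3 of the 7 genes. Lysosomal genes are known to share a short element, the E-box-like site of the transcription factor TFEB. Windows of 300 bases, from 250 before to 50 after the start of transcription, were taken from RefSeq (GRCm38.p6) for 6 of the 7 genes, and Ctsb was not matched. The letters searched were CACGTG and, as a stricter form that contains it, TCACGTGA, both of which read the same on either strand. Cst3 (chr2:148875463-148875762, minus strand) is shown as the gene with the largest difference, Ctsa (chr2:164833523-164833822, plus strand) and Ctsd (chr7:142387778-142388077, minus strand) as the genes that hold the stricter form, and capitals mark the matches.
Cst3: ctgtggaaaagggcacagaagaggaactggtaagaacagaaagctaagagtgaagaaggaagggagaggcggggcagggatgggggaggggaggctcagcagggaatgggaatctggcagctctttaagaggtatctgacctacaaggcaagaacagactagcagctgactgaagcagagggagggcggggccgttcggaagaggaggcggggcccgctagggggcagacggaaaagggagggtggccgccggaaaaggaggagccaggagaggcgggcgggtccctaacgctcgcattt
Ctsa: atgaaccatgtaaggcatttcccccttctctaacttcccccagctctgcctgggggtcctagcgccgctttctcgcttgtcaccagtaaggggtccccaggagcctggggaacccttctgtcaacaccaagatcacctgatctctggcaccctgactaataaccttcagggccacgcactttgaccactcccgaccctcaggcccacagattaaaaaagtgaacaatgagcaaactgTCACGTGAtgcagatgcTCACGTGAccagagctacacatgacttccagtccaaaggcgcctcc
Ctsd: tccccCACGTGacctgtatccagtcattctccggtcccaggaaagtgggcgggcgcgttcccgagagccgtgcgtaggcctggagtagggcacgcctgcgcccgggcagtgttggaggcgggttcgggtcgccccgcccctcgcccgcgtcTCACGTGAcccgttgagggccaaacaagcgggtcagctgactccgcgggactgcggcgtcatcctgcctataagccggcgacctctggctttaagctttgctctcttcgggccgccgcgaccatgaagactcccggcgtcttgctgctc
TCACGTGA stood at 13 bases before and 4 bases after the start in this window of Ctsa, and at 99 bases before the start in Ctsd, which also had CACGTG at 245 bases before. CACGTG without the outer letters was found 79 bases before the start of Ctsf and 236 before that of Ctsl, and neither form was in the windows of Cst3 and Ctsz or in another window of Ctsa. So 4 of 6 genes held CACGTG, where 8.09% of 27025 genes and 7.15% of 32851 windows did, and 2 of 6 held TCACGTGA, against 1.12% of genes. Of the other lysosomal genes, 8 of 33 hydrolases and activators, 5 of 20 membrane proteins and 1 of 14 other cathepsins with a window held CACGTG. A match is only a run of letters, and its relation to expression was not tested.

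The other genes of the cathepsin and cystatin families and of 3 further lysosomal lists were tested by limma (two-sided, Benjamini-Hochberg adjustment over all genes, threshold 0.05). They are what remained after the 7 genes had been picked on their values, and the lists were drawn up with earlier results of these data known, so they are not an independent set. Of 17 other cathepsin genes, 6 averaged 0.1 FPKM or more and were tested, and 11 fell short of that level, most of them cathepsins of the placenta. Between WSB and B6, 2 of the 6 were lower in WSB, beside 3.09% of all genes, and the median of the 6 was -0.53. Ctss, the cathepsin S of microglia and other antigen-presenting cells, had 50.5, 40.6 and 41.5 FPKM in B6, 36.5, 37.2 and 38.2 FPKM in C3H, and 32.2, 31.8 and 30.7 FPKM in WSB, so the 3 strains did not overlap. Between WSB and B6 it fell by 0.48 on the log2 scale (standard error 0.09), at an adjusted p of 0.0288 by limma with Benjamini-Hochberg adjustment. Ctsh, which encodes the aminopeptidase cathepsin H, was at 2.70 ± 0.15 FPKM in B6 and 1.76 ± 0.09 FPKM in WSB (SD, n = 3 each), which is a log2 fold change of -0.59 (0.12; adjusted p = 0.0296 by limma). Ctsc, the activator of serine proteases in immune cells, went the same way without passing, with 1.56 ± 0.30 FPKM in B6 and 0.977 ± 0.129 FPKM in WSB (SD, n = 3 each; adjusted p = 0.1299 by limma).

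Between WSB and C3H, 1 of the 6 other cathepsins was called lower in WSB, beside 3.13% of all genes. This was Ctsk, the collagen-degrading cathepsin K of osteoclasts, with 2.01 ± 0.37 FPKM in WSB and 3.67 ± 0.32 FPKM in C3H (SD, n = 3 each), which is a log2 fold change of -0.85 (0.16; adjusted p = 0.0274 by limma). Between C3H and B6 limma called 0 of the 6, with 1 at an unadjusted p under 0.05 and 0 by voom weights, and the median was -0.09. Ctso, a cathepsin of little known function, had 5.55 ± 0.41 FPKM in B6, 5.66 ± 0.37 FPKM in C3H and 6.01 ± 0.37 FPKM in WSB (SD, n = 3 each), which overlapped. The calls of single cathepsins depended on single mice. When each of the 6 mice was left out in turn, Ctss passed only without B6 replicate 1, Ctsk only without C3H replicate 2 or WSB replicate 1, and Ctsh in no case. The highest adjusted p of limma over 18 alternatives was 0.0968 for Ctss, 0.115 for Ctsk and 0.126 for Ctsh.

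Cystatins and stefins are the inhibitors of the same proteases, and outside Cst3 only 3 of 22 such genes were tested. Cstb, the stefin that works inside cells and whose loss causes a progressive myoclonus epilepsy, had 30.2 ± 2.0 FPKM in B6, 33.4 ± 5.3 FPKM in C3H and 31.9 ± 4.8 FPKM in WSB (SD, n = 3 each), with overlapping ranges. Cst6, a secreted cystatin, was at 1.51 ± 0.37, 1.96 ± 0.28 and 1.88 ± 0.30 FPKM in the same order, again with overlap. Cstl1 lies on chromosome 2 close to Cst3 (chr2:148750358-148755433), was the only gene of this list that passed, higher in C3H than in B6, and is named after its values were seen. It rested on 1, 2 and 3 reads in B6 mice, 12, 6 and 10 reads in C3H mice, and 1, 5 and 3 reads in WSB mice. Its fitted log2 fold change depended on the pseudocount and ran from 0.55 to 2.26 over 17 alternatives, of which 7 called it. With 1 mouse left out it passed only without C3H replicate 2, so no size is given for this gene.

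Among 42 lysosomal hydrolases and activators, the enzymes that digest lipids, sugars and proteins beside the cathepsins, 1 was higher in C3H than in B6, 1 was higher and 1 lower in WSB than in B6, and 1 was higher and 1 lower in WSB than in C3H. The shares of all genes were 2.38% for higher in C3H than in B6, 2.81% for higher in WSB than in B6, and 2.61% for higher in WSB than in C3H, and those for lower in WSB were 3.09% against B6 and 3.13% against C3H. Ppt1, the thioesterase that removes fatty acids from proteins, rose in both C3H and WSB against B6. It had 27.7 ± 0.68 FPKM in B6, 40.7 ± 0.93 FPKM in C3H and 39.8 ± 0.76 FPKM in WSB (SD, n = 3 each), and its fold changes were 0.56 (standard error 0.06, adjusted p = 0.00314) and 0.52 (0.06, adjusted p = 0.00266, limma with Benjamini-Hochberg adjustment). Unlike Cst3, Ppt1 was at about the same level in C3H and WSB, which overlapped, and it was called under all 18 alternatives in both pairs.

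Tpp1, a serine protease of lysosomes, was higher in WSB than in C3H by 0.49 (0.08, adjusted p = 0.0140, limma with Benjamini-Hochberg adjustment), with 13.03 ± 0.66 and 9.26 ± 0.35 FPKM (SD, n = 3 each). Leaving out C3H replicate 1, WSB replicate 1 or WSB replicate 2 ended this call, with an adjusted p by limma of up to 0.0759 over all alternatives.

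The hydrolases named for their role did not pass the threshold in any pair. Psap, the precursor of the saposins that activate lipid digestion and that is also a partner of progranulin, was the highest, at 655 ± 51 FPKM in B6, 717 ± 69 FPKM in C3H and 661 ± 41 FPKM in WSB (SD, n = 3 each). Lgmn, the asparaginyl protease that processes cathepsins into their mature forms, had fold changes of 0.06 between C3H and B6 and 0.07 between WSB and B6. Neu1, the sialidase that cathepsin A protects, differed by 0.13 and -0.01. Lgmn, Neu1 and Psap all had overlapping ranges between all strains. The median of the 42 hydrolases and activators was 0.08 between C3H and B6, where that of all genes tested was -0.004.

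Of 24 lysosomal membrane proteins, 2 were higher and 3 lower in WSB than in B6, and 1 was higher and 2 lower in WSB than in C3H. Over all genes 2.81% were higher and 3.09% lower in WSB than in B6, and 2.61% were higher and 3.13% lower in WSB than in C3H. Between C3H and B6 limma called 0, with 6 at an unadjusted p under 0.05 and 1 by voom weights. Scarb2, the receptor that carries glucocerebrosidase to lysosomes, was higher in WSB at 27.9 ± 1.2 FPKM against 21.2 ± 0.25 FPKM in B6 and 19.6 ± 1.1 FPKM in C3H (SD, n = 3 each), with fold changes of 0.39 (standard error 0.06, adjusted p = 0.0124) and 0.50 (0.07, adjusted p = 0.0103, limma with Benjamini-Hochberg adjustment). Slc17a5, the sialic acid exporter, was higher in WSB than in B6 by 0.46 (0.10, adjusted p = 0.0481, limma with Benjamini-Hochberg adjustment), a call that ended when any of the 6 mice was left out (adjusted p up to 0.1403). Laptm5 and Cd68, which are characteristic of microglia and macrophages, fell by 0.60 each on the log2 scale between WSB and B6 (adjusted p = 0.0103 and 0.0190, limma with Benjamini-Hochberg adjustment). Laptm5 fell by 0.68 between WSB and C3H (adjusted p = 0.0327, limma). Tpcn1, an endolysosomal ion channel, fell by 0.51 and 0.50 against B6 and C3H (adjusted p = 0.0323 and 0.0431, limma with Benjamini-Hochberg adjustment). With 1 mouse left out, Scarb2 passed in 3 of 6 cases in each pair, Cd68 in 2 (without B6 replicate 3 or WSB replicate 1) and Tpcn1 in 1 in each pair (without WSB replicate 3 and without C3H replicate 2). Laptm5 passed against B6 in 5 of 6 cases, all but that without B6 replicate 2, and against C3H only without C3H replicate 2. Lamp1, the most used marker of lysosomes, had 120.1 ± 1.9 FPKM in B6, 135 ± 11 FPKM in C3H and 117 ± 1.4 FPKM in WSB (SD, n = 3 each). Its fold changes of 0.16 and -0.03 against B6 did not pass. The C3H mice lay wholly above the B6 mice for Lamp1. The WSB mice lay wholly below both, with at most 118.2 FPKM against at least 118.6 FPKM in B6.

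The 24 genes of lysosomal sorting and control include the receptors that bring cathepsins to the lysosome and the factors that set the expression of lysosomal genes. Limma called 0 of them in each of the 3 pairs. At an unadjusted p under 0.05 there were 8 between C3H and B6, 4 between WSB and B6 and 5 between WSB and C3H, and voom weights called 1, 1 and 0. Tfeb, the transcription factor that activates lysosomal genes, was at 1.88 ± 0.21 FPKM in B6, 1.96 ± 0.26 FPKM in C3H and 1.68 ± 0.30 FPKM in WSB (SD, n = 3 each), with overlap. Grn, which encodes progranulin, had 15.8 ± 1.3, 17.3 ± 1.5 and 13.7 ± 1.7 FPKM in the same order. Of the mannose 6-phosphate receptors, M6pr had fold changes of 0.13 in C3H and 0.02 in WSB against B6, with overlap, and Igf2r had -0.19 and -0.09, with C3H wholly below B6. Sort1, which encodes sortilin and sorts proteins including cathepsin D, differed from B6 by -0.05 in C3H and -0.20 in WSB. Over the 5 lists, 99 genes were tested. Between C3H and B6, 2 passed as higher and 0 as lower, beside 2.38% and 2.26% of all genes. Between WSB and B6, 3 passed as higher and 6 as lower, beside 2.81% and 3.09% of all genes. Between WSB and C3H, 2 passed as higher and 4 as lower, beside 2.61% and 3.13% of all genes. Of the 99, 57 had a fold change above 0 between C3H and B6, 48 between WSB and B6 and 36 between WSB and C3H. The median fold change of all genes in these pairs was -0.004, 0.002 and 0.009.

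**Figure D5:**
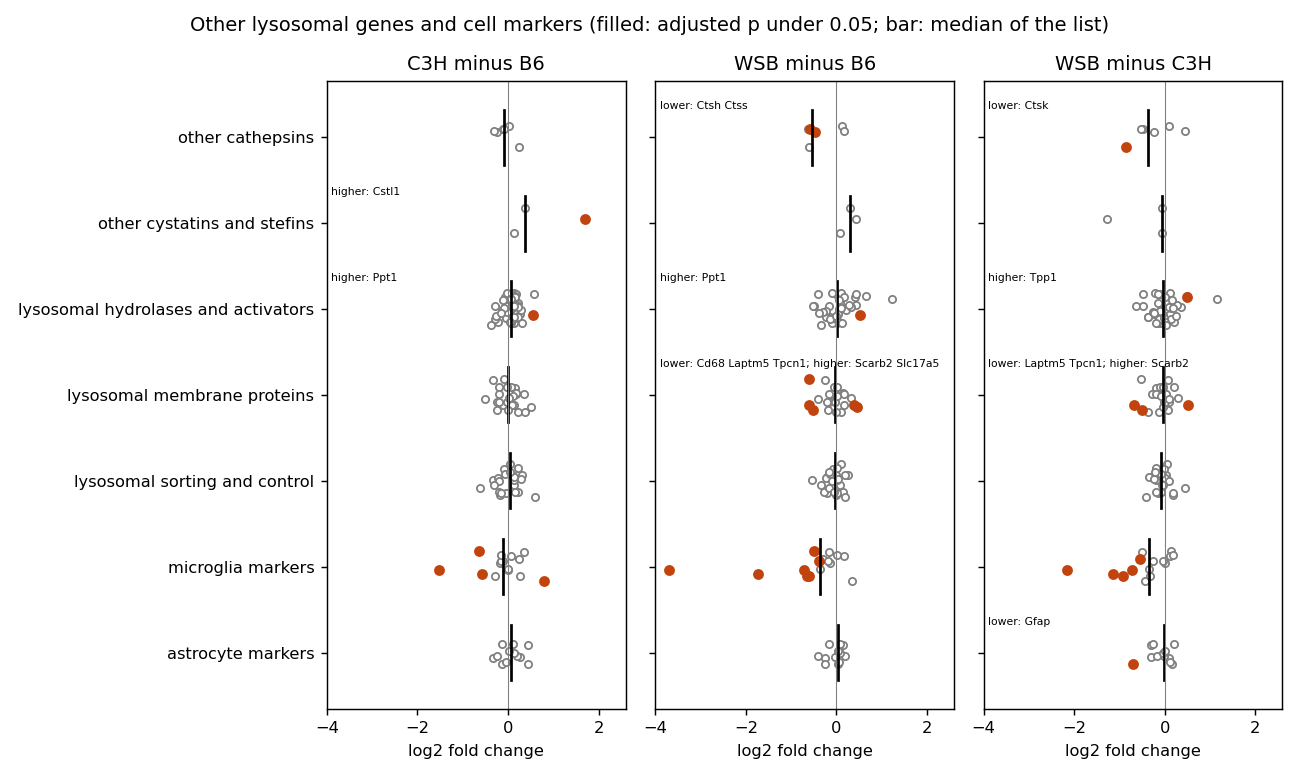
Log2 fold change (horizontal axes) between each pair of strains for genes of the other lysosomal lists and of 2 marker lists, 1 point per gene, with the median of each list as a bar. Filled points passed an adjusted p under 0.05 by limma and those of the lysosomal and astrocyte lists are named, genes not reported here are not drawn, and medians are over whole lists; the list medians lie close to 0 except for the other cathepsins and microglia markers in WSB (-0.53 and -0.36 against B6) and the cystatins and stefins, of which 3 were tested.

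Markers of the cells that make these proteins were measured beside them. Of 15 microglia markers, 12 were below 0 between WSB and B6, with a list median of -0.36. Limma called 7 lower (C1qb, Csf1r, C1qc, Tyrobp, Fcrls, Siglech and Trem2), beside 3.09% of all genes, with fold changes from -0.38 (Csf1r) to -3.69 (Fcrls). The other 8 markers were not called, and of these P2ry12 (0.18), Aif1 (0.34) and Itgam (0.02) were above 0. The 15 summed to 173 to 184 FPKM in WSB, 246 to 259 FPKM in B6 and 216 to 243 FPKM in C3H. Between WSB and C3H 5 were called lower, beside 3.13% of all genes. Between C3H and B6 1 was called higher and 3 lower, beside 2.38% and 2.26% of all genes. With 1 mouse left out the 7 calls between WSB and B6 became 3 to 5, fewest without B6 replicate 2, WSB replicate 1 or WSB replicate 3, and they ran from 2 to 8 under the other alternatives. The 5 calls between WSB and C3H became 3 without C3H replicate 1 and 8 without C3H replicate 2. Cst3, Ctsb, Ctsd and Ctsz, which microglia express strongly, had fold changes of -0.03, -0.03, 0.00 and -0.01 between WSB and B6, where Ctss, Ctsh, Laptm5 and Cd68 fell. The part of microglia in these differences was not tested. The 12 astrocyte markers summed to 2129 to 2403 FPKM in C3H, 1815 to 2003 FPKM in B6 and 1919.8 to 2118 FPKM in WSB. Apoe alone averaged 1204 FPKM in C3H, 885 FPKM in B6 and 981 FPKM in WSB, so the higher sum in C3H lay largely in this 1 gene. Between C3H and B6, 7 of the 12 markers were above 0 and 5 below 0. Limma called 0 of the 12 between C3H and B6, with 4 at an unadjusted p under 0.05 and 1 by voom weights, and the list median was 0.06. Between WSB and C3H 7 of the 12 were below 0. Gfap alone was called lower by limma, beside 3.13% of all genes, where voom weights called 2.

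The 8 choroid plexus markers summed to 469 to 605 FPKM in WSB, 65.3 to 766 FPKM in B6 and 92.6 to 658 FPKM in C3H. Nearly all of this was Ttr, at 461 to 593 FPKM in WSB, 61.7 to 749 FPKM in B6 and 88.6 to 644 FPKM in C3H. Limma called 0 of the 8 in each pair, with 0 at an unadjusted p under 0.05 and 0 by voom weights. All 10 oligodendrocyte markers were below 0 between WSB and B6, from -0.98 to -0.48 with a median of -0.69, and all 10 were at an unadjusted p under 0.05. Limma called 3 of them lower after adjustment, beside 3.09% of all genes, and voom weights called 8. Their sums were 509 to 723 FPKM in WSB against 946 to 1198 FPKM in B6 and 873 to 1161 FPKM in C3H. Of 5 red blood cell genes 3 were called higher in C3H than in B6, beside 2.38% of all genes. The 5 summed to 632 to 1009.6 FPKM in C3H, 217 to 254 FPKM in B6 and 249 to 329 FPKM in WSB. Limma called 2 of 8 endothelial markers lower in WSB than in B6, beside 3.09% of all genes. Of 10 cortical neuron and 6 perivascular macrophage markers it called 0 in that pair. At an unadjusted p under 0.05 there were 1 and 2, and voom weights called 1 and 0. The parts of astrocytes, choroid plexus and blood in the level of Cst3 were not tested.

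Larp6, Xbp1, Wbp11 and Gba2 were among the 5 genes whose pattern over the 9 libraries was most like that of Cst3, with Pearson's correlation of log2(FPKM + 0.1) from 0.977 to 0.984. They came from 13009 genes averaging 1 FPKM or more, of which 276 were above 0.9. Xbp1, a transcription factor of the unfolded protein response, had 34.4 ± 3.0 FPKM in B6, 44.0 ± 2.1 FPKM in C3H and 33.2 ± 1.9 FPKM in WSB (SD, n = 3 each). Gba2, a glucosylceramidase outside lysosomes, had 19.2 ± 0.82, 23.5 ± 1.5 and 19.4 ± 1.2 FPKM in the same order. Cox14, Cdk2ap2, Rps14 and Zfpl1 were among the 5 genes most like the mean pattern of the 7 genes, at 0.975 to 0.984, with 315 of 13003 genes above 0.9. Rps14 encodes a ribosomal protein, and its transcript has 56.0% GC, close to Ctsd and Ctsf. With 1 strain apart from the other 2, a high correlation here says mainly that a gene was also higher in C3H, and no p is given.

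Some reads could not be assigned to the 7 genes with certainty. Ctsb overlaps Fdft1 on the opposite strand over 774 bases, Ctsa overlaps Pltp and Neurl2 on the opposite strand over 1515 and 584 bases, and Ctsz overlaps Nelfcd over 10 bases. Fdft1 reached 31.3 FPKM and Pltp 14.5 FPKM in a library. Whether the counting used strand is not given in the sources used here. Ctsd shares 6757 bases with the predicted gene Gm49369 on its own strand, which was listed at 0 in every library, as were both predicted genes that overlap Ctsl. In the transcript of Ctsd, 671 of 2127 bases matched Gm49369. The values of 0 do not show whether reads in shared bases were counted for either gene, which was not tested. Of other genes, the transcript search found matches of 250 bases or more at 90% identity or more only in these overlapping genes, and none for Cst3, Ctsf and Ctsz.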

How the data were processed

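Cortex RNA of 9 male mice, 3 per strain, was sequenced with paired reads. The authors trimmed adapters with Cutadapt, and the submitters' processing notes name STAR, HTSeq and DESeq2; versions, strand setting and genome build are not given in the sources used here. The deposited values are FPKM per gene and library, and they were used as deposited. Multiplied by gene length they were whole multiples of 1 step per library (100% of values, tolerance 0.01), which gave the reads per gene. Rescaling by median ratios multiplied every library by the same factor. The deposited values were thus already on the scale of median ratios, not of read totals. The coordinates matched those of GENCODE M21 (GRCm38) for 53499 of 54532 genes, from which GC content was computed for 54409 genes. Groups follow the strain in the sample labels. The labels do not say how the mice were related, so p-values measure the spread between these mice.

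Pairs of strains were compared by limma 3.58.1 in R 4.3.3 (lmFit, eBayes with a trend, two-sided, Benjamini-Hochberg adjustment, threshold 0.05) on log2(FPKM + 0.1), for genes averaging 0.1 FPKM or more in the 6 mice of the pair. The authors tested counts with DESeq2. Here the deposited unit was tested on the log scale, with the recovered reads entering as voom weights in an alternative; fold changes on this scale understate those of low genes. Tests were checked on simulated data in which the planted changes were larger than most of those given here, so the check does not cover small changes. The GC trend was a lowess curve (span 0.3) of each library's log2 deviations. Similar transcripts were searched with blastn 2.17.0, and figures were drawn with matplotlib 3.10.9. The 7 genes and all gene lists were chosen with earlier results of these data known. The genes named were all 7, every other cathepsin, cystatin and stefin averaging 1 FPKM or more, up to 6 genes per other lysosomal list past the threshold, lysosomal genes by role (Tfeb, Grn, Igf2r, M6pr, Sort1, Lamp1, Psap, Lgmn and Neu1), and the 5 genes most like each pattern. Some genes that this rule names are not reported here. Cstl1, Gm23935 and the lowest libraries were picked with their values in view. Alternatives were other pseudocounts (1 and 0.01), testing all genes, testing those at 1 FPKM or more, equal read totals, median ratios, GC trend removed, all strains in 1 fit, eBayes without a trend, voom weights, a replicate block, protein-coding genes only and leaving out each mouse. Comparing ranges after GC removal was added after seeing the data.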

Additional observations from a re-analysis of the deposited data

How the results depend on the processing

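The median log2 fold change of the 7 genes between C3H and B6, 0.31 as reported, became 0.23 once the GC trend was removed, and leaving out 1 mouse gave 0.27 to 0.36; between WSB and C3H, -0.23 as reported, it was -0.32 to -0.17 with 1 mouse left out, lowest without C3H replicate 2, and between WSB and B6 it stayed between -0.02 and 0.07. As the 7 genes were chosen on these values, how many of them passed the threshold is no test of them and is given only to show how the fit over all genes depends on its settings. Between C3H and B6, 1 of the 7 passed, where 956 of 20602 genes tested did. This count became 0 with pseudocounts of 1 and 0.01, no filter, eBayes without a trend and the replicate block, where 480 to 905 genes passed. It was 2 after GC trend removal (1160 of 20579 genes passed) and 4 with all strains in 1 fit (1390 of 20602). With 1 mouse left out it was 0 to 4. It was 4 without C3H replicate 2, where 2301 of 20562 genes passed. It was 0 without each of the other 5 mice, where 498 to 569 genes passed. Between WSB and C3H, 1 of the 7 passed, where 1182 of 20607 genes did. This count became 0 with no filter, eBayes without a trend and the replicate block, where 531 to 920 genes passed. With 1 mouse left out it was 0 to 3. It was 3 without C3H replicate 2, where 2002 of 20614 genes passed. It was 0 without each other mouse, where 475 to 715 genes passed.

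Of the other lysosomal genes, 2 were past the threshold between C3H and B6. This became 1 with a pseudocount of 1, no filter, eBayes without a trend and the replicate block, 4 with all strains in 1 fit and with protein-coding genes only, 5 after GC trend removal, and 1 to 6 with 1 mouse left out, 6 without C3H replicate 2. Between WSB and B6, 9 became 5 without an eBayes trend, 15 with voom weights and 2 to 6 with 1 mouse left out, 2 without B6 replicate 2. Between WSB and C3H, 6 became 11 after GC trend removal and with all strains in 1 fit, 1 without an eBayes trend and with the replicate block, and 1 to 9 with 1 mouse left out, 1 without C3H replicate 1. Both calls of Ppt1 passed under every alternative run; no named call changed direction. Over all genes, 956 calls between C3H and B6 became 1488 with voom weights, 480 with the replicate block, and 498 to 2301 with 1 mouse left out (2301 without C3H replicate 2). Between WSB and B6, 1224 became 754 with the block and as few as 651 without B6 replicate 2, and between WSB and C3H, 1182 became 531 with the block, 475 without C3H replicate 1 and 2002 without C3H replicate 2. The cause of these changes was not tested.

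The deviations of same-numbered mice of different strains had correlations of -0.157 to 0.037 over genes. Those of mice with different numbers had -0.150 to 0.196. No pairing by replicate number was visible, which cannot exclude one. With 3 mice per strain, Ctsb and Ctsz overlapped between all strains.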
